A study of Mus musculus with 4 samples.

Results

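Transcripts of 9 genes that mark fibroblasts and progenitor cells of the vessel adventitia were followed in cultured mouse microvascular smooth muscle cells: Dpt, Pi16, Scara5, Anpep, Fap, Cd34, Ly6a, Thy1 and Tcf21. The genes were listed by symbol and no measured value entered the rule, but earlier results of these data were known when they were chosen. A probe belonged to the set when its transcript accession paired with one of these symbols in RefSeq. All 9 had at least 1 probe, with 11 probes among the 41174 on the array, which covered 18217 genes with a symbol. A probe was tested when it was well above background, by the scanner software's own mark, on all 4 arrays in at least 1 channel. This held for 9 probes of 8 of the 9 genes, against 23497 probes of 12388 genes over the whole array. Tcf21 and 1 of the 2 Scara5 probes were too dim to be tested.

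The series sets a knockout against a rescue, by its title. All cells were microvascular smooth muscle cells of a Rap1a knockout mouse model (male, strain C57BL6), grown in 10% serum, and all were exposed overnight to virus without serum when plated and then left for 48 h in 0.5% serum. Cells with the empty Shuttle vector were labelled with Cy5 and cells with the RapCA Shuttle vector with Cy3, and 1 RNA of each kind was hybridised to each of 4 arrays on 1 slide. The labels do not spell out RapCA, the promoter of the vector or the deleted part of Rap1a. They call the arrays biological replicates without naming separate cultures or animals, so p-values measure the spread between these arrays, which may be technical. The dyes ran the same way on every array, so dye and vector cannot be told apart.

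Ratios are log2 of the Cy3 channel (labelled RapCA) over the Cy5 channel (labelled vector), and each ± is an SD over 4 arrays. Rap1a, the targeted gene, gave clear signal in both channels. It was lower in the channel labelled RapCA, at -1.06 ± 0.44 (limma adjusted p = 0.00204). Whether this goes against the labels cannot be told, because they spell out neither RapCA nor the deleted part of Rap1a. Without a dye swap, all directions follow the dye labels only. Array 1 stood apart, with correlations across probes of 0.69 to 0.78 with the rest, against 0.93 to 0.98 among arrays 2 to 4. In its vector channel 51.3% of probes were well above background, against 60.1% to 61.9% on the other arrays. The number of arrays limits the precision.

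The adventitia is the outer coat of a vessel and holds fibroblasts that build collagen matrix, together with a Pi16 and Dpt positive population placed near the start of fibroblast lineages in several tissues. Cd34, Ly6a (the antigen Sca-1) and Thy1 (CD90) are surface proteins long used to sort mesenchymal progenitors, although none is limited to them. Smooth muscle cells in culture lose part of their contractile programme and take up matrix synthesis, so some fibroblast genes are also expressed by cultured smooth muscle. In bulk RNA, fewer cells of a type and less RNA per cell cannot be told apart.

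Most smooth muscle markers were detected in both channels. Of 10 such genes, 7 passed the background mark on every array in both channels, led in brightness by Acta2 (smooth muscle actin), Tagln and Cnn1, while Des, Synpo2 and Myocd were not above background on any array. Myh11, the smooth muscle myosin heavy chain, passed but lay low, at mean log2 levels of 6.62 (labelled RapCA) and 6.49 (labelled vector). The summed normalized signal of the list was 339619 to 369051 in the channel labelled RapCA and 158020 to 213927 in the channel labelled vector. Such sums are dominated by the brightest probes, and levels are not comparable between probes, so they do not describe a whole list. Tagln alone read mean log2 levels of 17.13 (labelled RapCA) and 15.00 (labelled vector). Of the 7, 4 were called higher: Tagln (2.13 ± 0.28), Lmod1 (1.25 ± 0.07), Actg2 (0.68 ± 0.20) and Acta2 (0.54 ± 0.17). Of 8 pericyte markers 4 could be tested, 3 called higher and 1 lower, with sums of 27757 to 31654 against 9072 to 12841; Rgs5, Abcc9, Higd1b and Cox4i2 were not above background on any array. Pecam1 and Cdh5 of the endothelial list, Ptprc and Adgre1 of the leukocyte list, Adipoq and Plin1 of the adipocyte list, and Wt1 of the mesothelial list were not above background on any array. Other genes of these lists were detected and called lower: Vwf (-2.03 ± 0.16) and Kdr (-0.75 ± 0.40) of the endothelial list, Pparg (-1.78 ± 0.11) and Fabp4 (-1.44 ± 0.11) of the adipocyte list, and Krt19 (-1.25 ± 0.58) and Krt8 (-1.04 ± 0.02, above background in the channel labelled vector alone) of the mesothelial list. Called higher were Tek (1.16 ± 0.23, endothelial) and Lyz2 (0.52 ± 0.09, leukocyte), both of which passed the filter through the channel labelled RapCA alone. In these 4 lists 4 of 10, 4 of 9, 3 of 8 and 3 of 7 genes with a probe could be tested, and summed signals were 538 to 564 against 763 to 908 (endothelial), 717 to 894 against 631 to 899 (leukocyte), 1229 to 1360 against 3224 to 3536 (adipocyte) and 1516 to 2209 against 2227 to 6341 (mesothelial). Of the 6 Schwann cell markers 3 could be tested, 2 of them called higher, with sums of 9424 to 11463 against 3967 to 7040. Over all genes tested 28.9% were called higher and 24.9% lower. The part of other cell types in the results on the fibroblast markers was not tested.

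Of the 8 marker genes tested, 5 were called higher in the channel labelled RapCA (Dpt, Pi16, Scara5, Anpep and Fap), 1 was called lower (Ly6a), and Cd34 and Thy1 did not pass. A gene was called at an adjusted p of 0.05, by its brightest tested probe. Over all genes tested 53.9% were called, 28.9% higher and 24.9% lower. With median centring in place of loess 32.4% of all genes were called, and the higher share of calls fell to 38.4% from 53.7%. The 5 marker genes that rose, Fap among them, were at least 2-fold higher. Of all genes tested 9.16% were called and at least 2-fold higher, and 7.47% were called and at least 2-fold lower. The levels of the channels did not overlap for 6 of 8 marker genes and for 45.4% of all genes tested. The median ratio of the 8 genes was 1.74, against 0.02 over all genes. Fap passed the filter only through the channel in which it was higher, so these counts and this median lean on that choice.

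**Figure D1:**
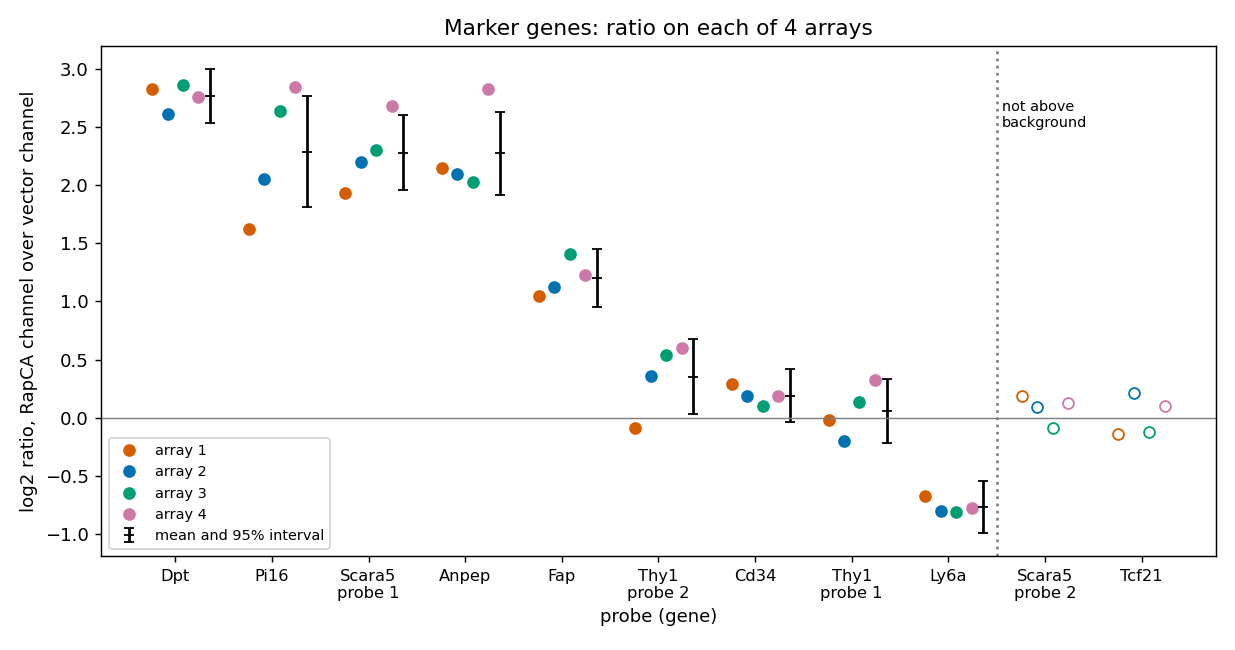
Log2 ratio of the RapCA channel over the vector channel, as labelled (vertical axis), for each marker probe (horizontal axis) on each of 4 arrays (points). Bars give the mean and the limma 95% interval of each tested probe. Dpt, Pi16, Scara5, Anpep and Fap lie above 1 on every array, Ly6a lies below -0.6 on every array, and Cd34 and Thy1 lie between -0.20 and 0.60; Tcf21 and the dimmer Scara5 probe were not above background.

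Dpt encodes dermatopontin, a small secreted protein that binds decorin and helps assemble collagen fibrils. Its log2 level was 14.63, 14.73, 14.82 and 14.57 in the channel labelled RapCA and 11.80, 12.12, 11.96 and 11.81 in the channel labelled vector on arrays 1 to 4. The channels did not overlap, and every RapCA level stood more than 2 log2 units above every vector level. The ratio was 2.76 ± 0.11 (n = 4, 95% interval 2.53 to 3.00, limma adjusted p = 9.91e-06), or 6.80-fold, and it ranked 53 from the highest of 12388 genes, or 12336 if the signs were turned. Dpt was also the most even of the genes that rose, with ratios of 2.61 to 2.86, so array 1 (2.83) was in the midst of the others. Its brightness was far over background in both channels.

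Pi16 encodes peptidase inhibitor 16, a membrane-anchored member of the CAP protein family that marks adventitial fibroblasts. Its log2 level was 9.76, 9.13, 9.69 and 9.84 in the channel labelled RapCA and 8.14, 7.08, 7.05 and 7.00 in the channel labelled vector. The channels did not overlap, but the normalized vector level of array 1 was about 1 log2 unit above those of the other arrays, which lay within 0.1 of each other. Before normalization the vector signal less background was lowest on array 1, at 105, 132, 127 and 107.5 on arrays 1 to 4. Pi16 ratios were 1.62, 2.05, 2.64 and 2.84, with a mean of 2.29 ± 0.56 (95% interval 1.81 to 2.76, limma adjusted p = 0.000162), or 4.88-fold. Without array 1 the mean was 2.51 (adjusted p = 3.02e-05), and by the scanner software's processed signals it was 3.04. This was the widest spread among the marker genes.

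Scara5 encodes a class A scavenger receptor that takes up ferritin and is found on stromal progenitors. Its brightest probe read 9.20, 8.92, 8.98 and 9.31 in the channel labelled RapCA and 7.27, 6.72, 6.68 and 6.62 in the channel labelled vector. The channels did not overlap, and as for Pi16 the normalized vector level was highest on array 1. Here too the vector signal less background was lowest on array 1 before normalization, at 34.5, 84.5, 78 and 65. Scara5 ratios were 1.93, 2.20, 2.30 and 2.68, with a mean of 2.28 ± 0.31 (95% interval 1.96 to 2.60, limma adjusted p = 4.25e-05), or 4.85-fold, and 2.39 without array 1. The dimmer Scara5 probe is designed to another transcript accession, was not above background in either channel on any array, and gave 0.08 ± 0.12 with no test. The call therefore rests on 1 probe.

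Anpep and Fap are both membrane peptidases. Anpep, or CD13, is an aminopeptidase common on mesenchymal cells and on adventitial progenitors. Its log2 level was 11.70, 11.19, 11.44 and 11.98 in the channel labelled RapCA and 9.55, 9.09, 9.42 and 9.15 in the channel labelled vector. The channels did not overlap, and the RapCA level was highest on array 4. Anpep ratios were 2.15, 2.10, 2.02 and 2.83, with a mean of 2.27 ± 0.37 (95% interval 1.92 to 2.63, limma adjusted p = 5.69e-05), or 4.83-fold. Without array 4 the mean was 2.09 and without array 1 it was 2.32.

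Fap encodes fibroblast activation protein, a serine peptidase of activated fibroblasts in wounds and tumour stroma. It lay close to background, at 7.37, 7.62, 7.61 and 7.63 in the channel labelled RapCA and 6.32, 6.50, 6.21 and 6.40 in the channel labelled vector. It was well above background on 4 of 4 arrays in the former channel and on 3 of 4 in the latter, array 1 being the exception. The channels did not overlap. Fap ratios were 1.05, 1.12, 1.41 and 1.23, with a mean of 1.20 ± 0.15 (95% interval 0.95 to 1.45, limma adjusted p = 0.000154), or 2.30-fold. The size depends on how background is handled: it was 1.82 with an offset of 10 and 2.84 by the scanner software's processed signals, both still called. The same software ratio was 3.47 for Scara5 against 2.28 here.

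**Figure D2:**
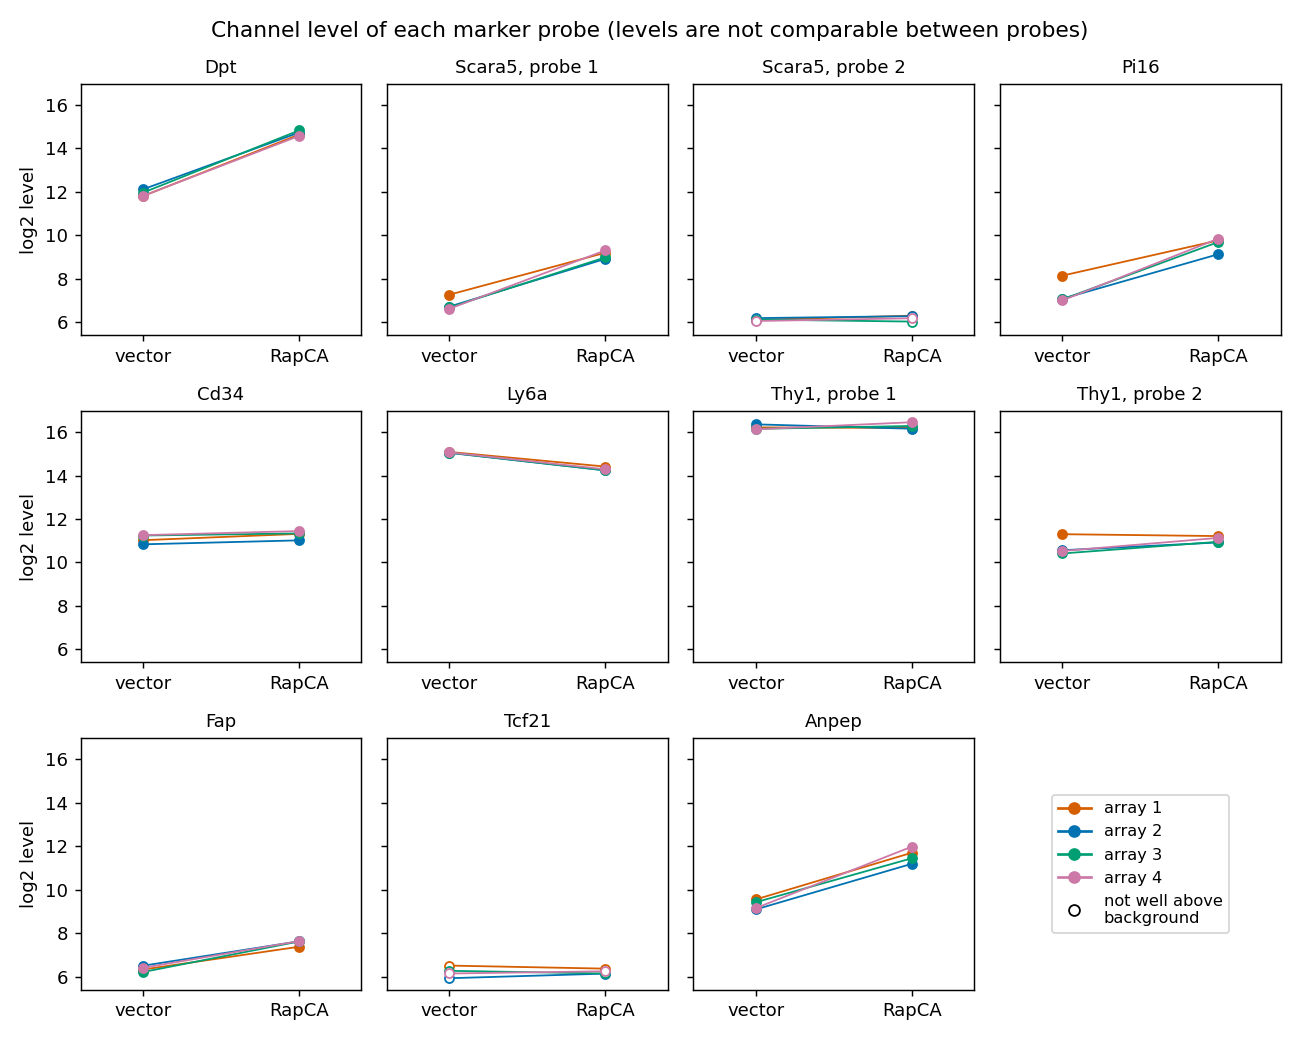
Normalized log2 level (vertical axes) of each marker probe in the channel labelled vector and in the channel labelled RapCA (horizontal axes), with a line for each of 4 arrays; open points were not well above background. Lines rise steeply for Dpt, Pi16, Scara5 and Anpep, fall for Ly6a and cross or stay flat for Thy1 and Cd34, and levels of different probes cannot be set against each other.

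Cd34 encodes a sialomucin of haematopoietic and vascular progenitors and of adventitial fibroblasts. Its log2 level was 11.32, 11.02, 11.34 and 11.45 in the channel labelled RapCA and 11.03, 10.84, 11.24 and 11.26 in the channel labelled vector. It was well above background everywhere, and the channels overlapped. All 4 ratios were above 0, at 0.29, 0.18, 0.10 and 0.19, with a mean of 0.19 ± 0.08 (95% interval -0.04 to 0.41, limma adjusted p = 0.141). The upper end of the interval is a rise of 1.33-fold, and with median centring in place of loess the ratio was -0.02.

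Ly6a encodes Sca-1, a lipid-anchored surface protein of the Ly6 family. It was bright in both channels, at 14.41, 14.24, 14.24 and 14.29 in the channel labelled RapCA and 15.09, 15.04, 15.06 and 15.07 in the channel labelled vector. The channels did not overlap, and here the vector level was the higher on every array. Ly6a ratios were -0.67, -0.81, -0.82 and -0.78, with a mean of -0.77 ± 0.06 (95% interval -0.99 to -0.55, limma adjusted p = 0.000642), or 1.70-fold more in the channel labelled vector. The ratio was -1.30 with median centring in place of loess and -0.80 without array 1. Ly6a thus ran against the 5 genes that rose, with the smallest spread in the set.

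Thy1 encodes CD90, a lipid-anchored glycoprotein of fibroblasts, neurons and T cells. Its brighter probe read 16.19, 16.16, 16.28 and 16.45 in the channel labelled RapCA and 16.22, 16.36, 16.15 and 16.13 in the channel labelled vector. The channels overlapped. Ratios of this probe were -0.02, -0.20, 0.13 and 0.33, with a mean of 0.06 ± 0.22 (95% interval -0.22 to 0.33, limma adjusted p = 0.709). With median centring in place of loess it turned to -0.64 (adjusted p = 0.0315). The dimmer Thy1 probe gave ratios of -0.09, 0.36, 0.54 and 0.60, a mean of 0.35 ± 0.31 (limma adjusted p = 0.0672), and its channels overlapped too. Without array 1 that probe was called, at 0.50 (adjusted p = 0.00168). The probes of Thy1 differed by -0.29 ± 0.26 on the same arrays, so no direction is given for this gene.

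Tcf21 encodes a basic helix-loop-helix transcription factor of epicardial and fibroblast precursors. Its probe was not well above background in either channel on any array, and no ratio is reported as a measurement of the transcript. The untested value was 0.01 ± 0.17.

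In order of ratio, Dpt came first and Pi16, Scara5 and Anpep next, followed by Fap, the dimmer Thy1 probe, Cd34, the brighter Thy1 probe and Ly6a. Neighbours were compared on the same arrays with a two-sided exact sign-flip permutation test, whose smallest p with 4 arrays is 0.125, so none of the 8 comparisons can pass. Pi16 exceeded Scara5 by 0.01 ± 0.29 (exact p = 0.875), and Scara5 exceeded Anpep by 0.01 ± 0.23 (exact p = 1.000). Neighbours were set by the same ratios, so small gaps are built in, and no conclusion on a difference is drawn. Dpt exceeded Pi16 by 0.48 ± 0.55, on 3 of 4 arrays. Steps that held on all 4 arrays were Anpep over Fap (1.07 ± 0.41), Fap over the dimmer Thy1 probe (0.85 ± 0.22) and the brighter Thy1 probe over Ly6a (0.83 ± 0.24), each at the exact p of 0.125 (0.333 adjusted over the 8). The dimmer Thy1 probe over Cd34 (0.16 ± 0.38) and Cd34 over the brighter Thy1 probe (0.13 ± 0.26) were smaller than their SDs.

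Promoter sequences were taken from a RefSeq table (build GRCm38.p6), in which 5 of the 9 genes were matched: Dpt, Pi16, Anpep, Cd34 and Tcf21. Each covers 250 bases before the annotated start and 50 after it. Shown are the 3 promoters of genes that rose with close ratios and, for contrast, that of Cd34, which was not called. Capitals mark matches to TATAAA or to the E-box CANNTG, the motif class bound by helix-loop-helix factors such as Tcf21. The regions are chr1:164796413-164796712 (plus strand) for Dpt, chr17:29318632-29318931 (plus strand) for Pi16, chr7:79848161-79848460 (minus strand) for Anpep and chr1:194938571-194938870 (plus strand) for Cd34.
Dpt: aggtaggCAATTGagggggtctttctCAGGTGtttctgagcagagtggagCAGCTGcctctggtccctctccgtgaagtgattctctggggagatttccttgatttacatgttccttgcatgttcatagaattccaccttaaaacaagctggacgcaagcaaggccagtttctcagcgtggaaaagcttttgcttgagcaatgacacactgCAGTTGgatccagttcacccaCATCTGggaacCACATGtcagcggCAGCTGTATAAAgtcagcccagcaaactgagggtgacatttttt
Pi16: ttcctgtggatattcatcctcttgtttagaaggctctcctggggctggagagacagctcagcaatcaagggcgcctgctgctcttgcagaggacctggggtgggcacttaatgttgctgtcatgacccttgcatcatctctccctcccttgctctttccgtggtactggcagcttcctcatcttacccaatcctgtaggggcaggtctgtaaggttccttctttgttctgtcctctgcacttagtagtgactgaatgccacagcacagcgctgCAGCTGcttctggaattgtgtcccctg
Anpep: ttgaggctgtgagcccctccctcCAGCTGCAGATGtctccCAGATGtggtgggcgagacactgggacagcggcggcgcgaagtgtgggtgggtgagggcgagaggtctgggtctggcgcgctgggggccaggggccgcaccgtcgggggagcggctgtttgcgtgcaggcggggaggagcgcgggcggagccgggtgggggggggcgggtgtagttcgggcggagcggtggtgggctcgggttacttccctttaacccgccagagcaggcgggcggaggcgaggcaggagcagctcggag
Cd34: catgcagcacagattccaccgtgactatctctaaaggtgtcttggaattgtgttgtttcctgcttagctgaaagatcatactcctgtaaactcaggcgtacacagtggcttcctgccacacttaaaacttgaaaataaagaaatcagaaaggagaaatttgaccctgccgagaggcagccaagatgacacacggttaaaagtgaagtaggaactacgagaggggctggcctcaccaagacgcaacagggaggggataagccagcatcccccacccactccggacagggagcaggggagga

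The promoters of Dpt, Pi16 and Anpep each held CANNTG, with the match CAGCTG in each, but differed in the number and place of matches. The share of all promoters that hold CAGCTG was not counted. Dpt held 7 matches to CANNTG and 1 to TATAAA, which begins at base 13 of the transcript and directly follows the last CANNTG match. Anpep held 3 matches to CANNTG, at 227, 221 and 210 bases before the start, and Pi16 held 1, starting at base 24 of the transcript. Cd34 and Tcf21 held none of the motifs searched. CANNTG, which contains CACGTG, occurred in 72.3% of 32851 promoters of this length and TATAAA in 13.6%, on either strand. No match to the CArG box of serum response factor (in 1.63% of all promoters), the core of the interferon-stimulated response element (3.44%), CACGTG (7.15%), GGAATG (14.7%) or TGACTCA (5.20%) was found in the 5 promoters. Anpep differed in base composition, with 72.3% G and C and 28 CpG sites, against 48.7% and 4 for Dpt, 53.3% and 3 for Pi16, and medians of 52.7% and 7 over all promoters.

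The 2 genes whose 4 ratios lay closest to each member were sought for the 5 members that were at least 2-fold higher, among 12387 other genes, by root mean square difference over the 4 arrays. For Dpt they were Bgn (biglycan, 0.127) and Col16a1 (a fibril-associated collagen, 0.128). For Scara5 they were Adamts10 (a secreted metalloproteinase of the ADAMTS family, 0.0655) and Col8a2 (a collagen, 0.0928). Anpep was nearest to Scara5 itself (0.197) and to Col2a1 (0.202), Pi16 to Ephb3 (0.133) and Fcgrt (0.137), and Fap to Tmem242 (0.0381) and Dnmt3a (0.0567). With only 4 arrays, many genes can lie this close.

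Other genes of fibroblasts were read from lists. General fibroblast genes were called higher in 13 of 18 tested and lower in 0, with a median ratio of 1.14, against 28.9% higher and 24.9% lower over all genes. Col14a1, 1 of the 13, was above background in the channel labelled RapCA alone, and Lum and Col15a1 were too dim to be tested. Those called included Dcn (decorin, a partner of dermatopontin) at 3.88 ± 0.19, Ogn (osteoglycin) at 3.14 ± 0.32, Fbln2 (fibulin) at 1.69 ± 0.12, Col1a1 at 2.40 ± 0.37, Islr at 2.33 ± 0.51 and Col3a1 at 2.18 ± 0.43. With median centring in place of loess the ratios of Col1a1, Col3a1 and Fbln2 were 1.61, 1.45 and 0.90. Activated fibroblast genes were called higher in 8 of 14 and lower in 2, with a median of 0.55. Cthrc1, 1 of the 8, was above background in the channel labelled RapCA alone. Those with the smallest p were Postn (periostin, 3.16 ± 0.35), Fgf7 (1.35 ± 0.18) and Tnc (tenascin C, 1.93 ± 0.47).

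Of 20 adventitial fibroblast genes 15 were tested, with 6 called higher and 3 lower and a median of 0.12. Cd248 (endosialin, 2.85 ± 0.45), Mfap5 (a microfibril protein, 2.14 ± 0.27) and Fbn1 (fibrillin, 2.11 ± 0.74) rose with Dpt and Pi16, and Procr (the protein C receptor, -1.79 ± 0.15) fell. Fbn1 read 3.21 on array 1 and 1.63 to 1.81 on the others. Mesenchymal stromal surface genes also went both ways, with 6 of 10 called higher and 3 lower (median 0.50). Mcam (CD146) was at 2.30 ± 0.30, whereas Alcam (CD166) was at -2.22 ± 0.43 and Nes (nestin, an intermediate filament of progenitors) at -3.48 ± 0.53. Over all 4 lists 41 of 57 genes tested were called, or 71.9%, against 53.9% of all genes tested, and their median was 0.61. The adventitial list alone, with 60.0% called, lay near that share.

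**Figure D3:**
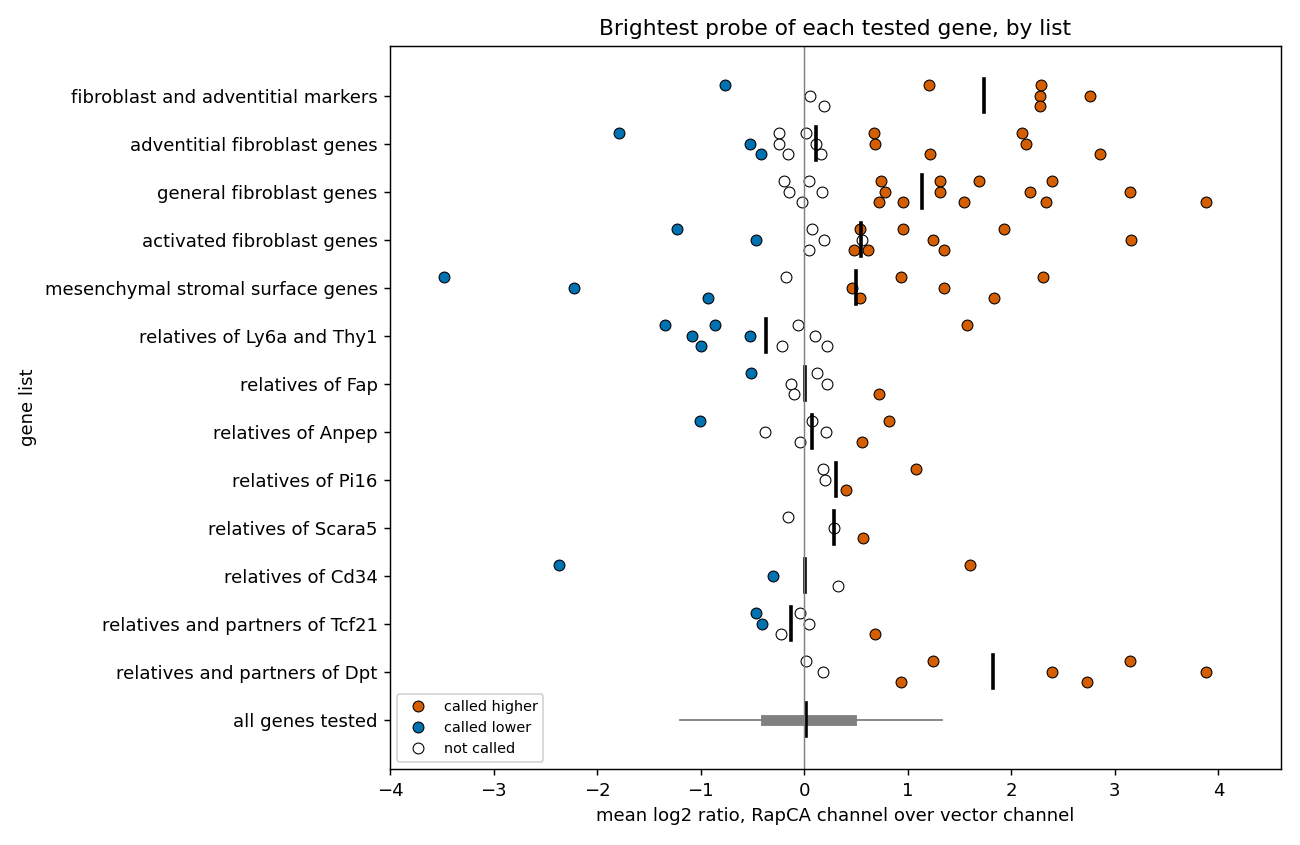
Mean log2 ratio of the brightest tested probe (horizontal axis) of each gene in the marker set and in lists of fibroblast genes and relatives (vertical axis), with black bars for list medians. For all genes tested the thick grey bar spans the 25th to 75th percentile, -0.37 to 0.45, and the thin line the 5th to 95th, -1.20 to 1.33, so Dpt, Pi16, Scara5 and Anpep lie beyond the 95th percentile.

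Relatives of the markers went both ways. Over all genes tested 28.9% were called higher and 24.9% lower. The list for Ly6a and Thy1 held relatives of Ly6a only. Of these 10 were tested, with 1 called higher and 5 lower (median -0.37). Plaur (the urokinase receptor, -1.35 ± 0.25) and Ly6e (-1.08 ± 0.15) fell, and Cd59a (a complement inhibitor, 1.57 ± 0.27) rose. Cd59a passed the filter through the channel labelled RapCA alone, being above background on 3 of 4 arrays in the other, and its ratio was 3.20 by the scanner software's signals. For Fap, 6 related peptidases were tested, of which Prepl (0.72 ± 0.37) rose and Dpp9 (-0.51 ± 0.11) fell, while Dpp8 was at 0.22 ± 0.38 (limma adjusted p = 0.280). For Anpep, 7 relatives were tested, with Rnpepl1 (0.82 ± 0.23) and Lta4h (0.56 ± 0.29) higher and Erap1 (an aminopeptidase that trims antigenic peptides, -1.01 ± 0.27) lower. None of the related peptidases named here reached the ratio of Fap or Anpep.

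For Pi16, 4 relatives were tested, and Glipr2 (1.08 ± 0.18) and Crispld2 (0.41 ± 0.19) rose, with Pi15 at 0.20 ± 0.15 (limma adjusted p = 0.148). For Scara5, 3 were tested: Scara3 rose by 0.56 ± 0.12, Colec12 was at 0.29 ± 0.37 (limma adjusted p = 0.159) and Marco at -0.15 ± 0.18 (limma adjusted p = 0.280). The dimmer tested probe of Colec12 was called higher. Among 4 genes listed with Cd34, Podxl2 (1.60 ± 0.51, and 2.34 by the scanner software's signals) rose, and Cd24a (a mucin-like surface protein, -2.37 ± 0.36) and Podxl (podocalyxin, -0.30 ± 0.14) fell. Podxl passed the filter through the channel labelled vector alone, being above background on 3 of 4 arrays in the other. Of 6 relatives and partners of Tcf21 tested, Tcf4 (0.68 ± 0.16) rose and Twist2 (-0.47 ± 0.14) and Mef2c (-0.41 ± 0.26) fell. Of 8 partners of dermatopontin, some of them also in the fibroblast lists, 6 were called higher and 0 lower with a median of 1.82, among them Dcn, Fmod (fibromodulin, 3.14 ± 0.55, and 4.39 by the scanner software's signals), Bgn (2.73 ± 0.23) and Col1a1. With median centring in place of loess, Prepl, Dpp9, Rnpepl1, Lta4h, Crispld2, Scara3, Podxl, Tcf4 and Mef2c did not pass, and Twist2, Mef2c, Podxl and Crispld2 did not pass without at least 1 of the arrays. Over all lists, 61 of 98 genes tested were called, or 62.2%, with 44 higher and 17 lower, against 53.9% of all genes tested. With both channels required above background, 57 of 88 were called, or 64.8%, against 53.4% of all genes.

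Because Ly6a fell, its chromosomal neighbours were read as well, a choice made after its values and those of its relatives had been seen. Of the 16 protein-coding genes nearest in RefSeq order, 8 on each side, 9 had a probe and 5 could be tested. All 5 were also in the list of relatives of Ly6a, so their calls are the same ones counted there. Ly6e, Ly6i, Ly6c1 (-0.53 ± 0.25) and Ly6c2 (-0.86 ± 0.22) were called lower, 0 were called higher, and Ly6f was at -0.22 ± 0.24 (limma adjusted p = 0.170). The median over the 5 was -0.86, against 0.02 over all genes tested, of which 24.9% were called lower and 28.9% higher. These genes are close in sequence, so signal of 1 of them on the probe of another was not tested, and they are not separate evidence for each other.

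Across 14 other ways of processing the same arrays, the genes that rose stayed above 1 and called wherever they were tested.

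**Figure D4:**
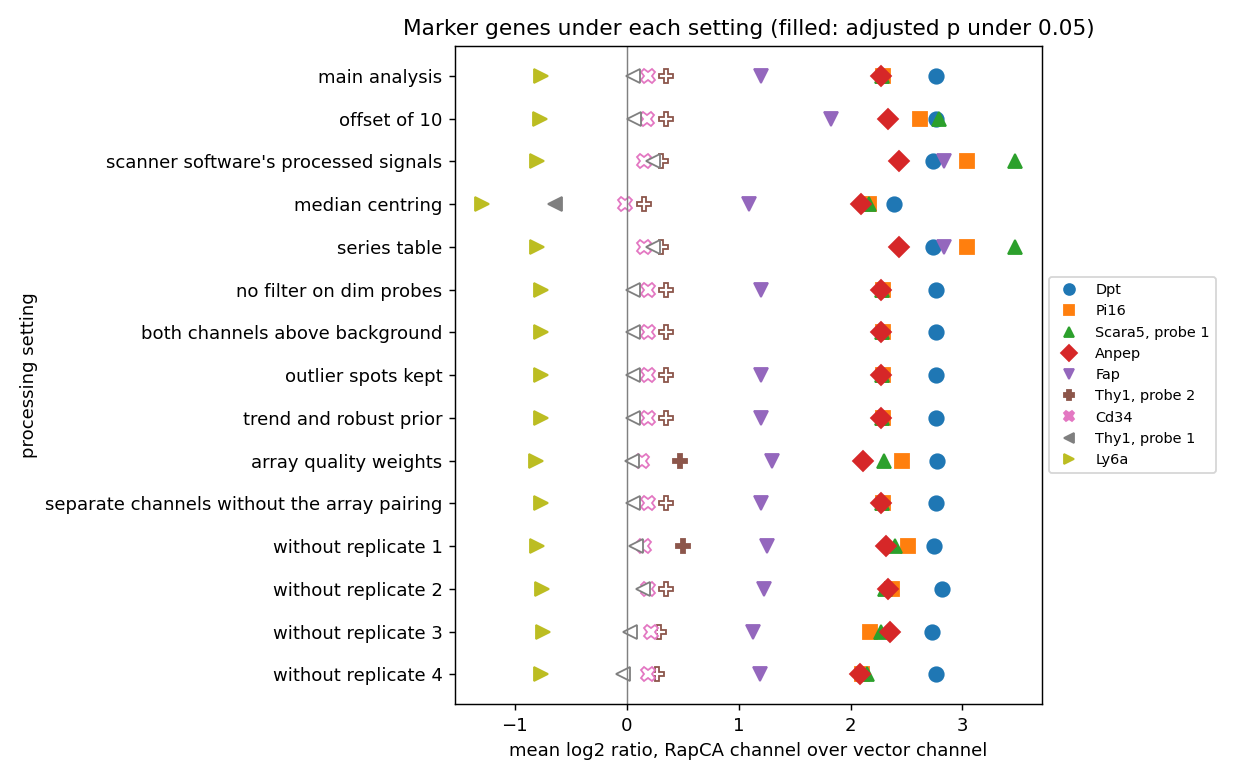
Mean log2 ratio (horizontal axis) of each marker probe under each processing setting (vertical axis), with filled points where the adjusted p was under 0.05. Dpt stays between 2.39 and 2.82, Fap moves from 1.09 to 2.84, and Ly6a stays below -0.7, while the brighter Thy1 probe passes with a negative ratio with median centring only.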

How the data were processed

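The intensity values used, deposited by the authors without normalization, are median spot signals and median local background signals per channel, per the file headers. The headers name Agilent Feature Extraction 10.7.3.1, and the submitters' processing notes name version 10.9. The deposited log10 ratios of Cy5 over Cy3, corrected and dye-normalized by that software per the file headers, served as an alternative. The series table matched them to within 5e-05 on 40901 probes.

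Background was corrected with normexp (offset 50), and log2 ratios were computed from the deposited intensity values with loess within each array, control spots having no weight. Outlier spots (94 to 137 an array) were left out, and no spot was saturated. Levels per channel used Aquantile. The mean ratio over at least 3 arrays was tested against 0 with limma (lmFit, eBayes; Benjamini-Hochberg over 23497 probes, threshold 0.05). RefSeq paired 64.8% of probes with a symbol, by accession. Methods were tested on simulated data with few changed probes and the same noise on every array. That test does not cover many changed genes or an array that stands apart.

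Members and lists were chosen with earlier results of these data known. Named were all members, Rap1a, up to 3 genes a list by p plus called genes of at least 4-fold, 2 nearest genes a member, and up to 3 markers a cell type by brightness. Further markers were named, after their values were seen, for being called or not above background. Tools were R 4.3.3, limma 3.58.1, statmod 1.5.0, data.table (version 1.17.8), Python 3.11.15, pandas 2.3.3 and matplotlib 3.10.9.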

Additional observations from a re-analysis of the deposited data

Results flagged for a closer look

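Of 51 genes or probes examined array by array, 4 had 1 array far from the other 3 by Dixon's test at 4 samples, a test that chance meets in about 1 of 20. Anpep read 2.83 on array 4, against 2.02 to 2.15 on the others. Fbn1 read 3.21 on array 1, against 1.63 to 1.81. Dpp8 read 0.782 on array 1, against -0.00288 to 0.0452. Colec12 read 0.839 on array 1, against 0.0277 to 0.138. The last 3 lie on the array that stood apart over all probes, whose part in these values was not tested.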

How the results depend on the processing

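Of the 8 marker genes, 6 were called under every alternative tried except 2. Calls over all genes ranged from 32.4% (median centring) to 78.7% (array weights). Median centring in place of loess called 7 of 8 marker genes (5 higher, 2 lower). Requiring both channels above background called 5 of 7, against 53.4% of all genes, with Fap not tested. Median centring moved the median of all genes from 0.02 to -0.17, lowered calls over all genes from 6673 to 4018 and over all probes from 11656 to 6546, and gave the brighter Thy1 probe -0.64 (adjusted p = 0.0315, range over its alternatives 0.0315 to 0.901). The dimmer Thy1 probe passed with array weights (0.48, adjusted p = 1.74e-05), which raised calls over all probes to 17946, and ranged from 0.27 to 0.50 with 1 array left out, passing without array 1. Leaving out 1 array gave 7907 to 15738 calls over all probes, the most without array 1 and the fewest without array 3. The causes were not tested. Of the related genes listed, 42 to 77 of those tested were called, against 61. The fewest were with median centring (42.9%, against 32.4% of all genes). The most were with array weights (78.6%, against 78.7% of all genes). Among named relatives, Tcf4, Mef2c, Rnpepl1, Lta4h, Podxl, Dpp9, Prepl, Crispld2 and Scara3 lost their calls with median centring, and Twist2, Mef2c, Podxl and Crispld2 without at least 1 array (Podxl with channels unpaired too). Pi15 passed with array weights (0.28). Dim probes depend most on background: Fap was 2.84, Scara5 3.47 and Pi16 3.04 by the scanner software's signals. The ratio within each array already pairs the channels. With the channels unpaired 6 of 8 markers were called, against 47.2% of all genes.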
